A study of Mus musculus with 12 samples.

Results

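The genotype by day interaction was examined gene by gene in splenic CD8 T cells: it is the difference between Ezh2-deficient (KO) and wild-type (WT) cells at day 5 minus the same difference at day 3, on log2(CPM + 1) values. CPM counts the reads assigned to a gene for every 1000000 assigned reads. All 12 libraries entered, and a gene was tested when it reached 1 CPM in at least 3 of them, which kept 11417 of the 25655 genes listed and left 14238 untested. A gene was called when its limma p, adjusted by Benjamini-Hochberg over all tested genes, was below 0.05. Called genes were then sorted by whether the KO to WT difference had grown, had shrunk or had turned its sign by day 5. Both genotypes were sampled at day 3 and at day 5 with 3 libraries in each of the 4 groups, from cells of female C57BL/6 mice. All groups had the same start: naive (CD44 low) CD8 T cells received plate-bound antibody to TCR-β at 3 µg/ml and antibody to CD28 at 1 µg/ml for 2 days, with IL-2 at 10 ng/ml, and were then moved to a new plate with IL-2. The day names are those of the sample titles, because the culture times in the protocol do not add up to the second of them. How Ezh2 was deleted, the age of the mice and whether replicates were separate mice or cultures are not stated in the labels, so the p-values rest on a spread between libraries that may be no more than technical.

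EZH2 is the catalytic subunit of Polycomb repressive complex 2 (PRC2) and sets the H3K27me3 mark, which keeps developmental genes and the Cdkn2a locus silent. In CD8 T cells the complex is known for its part in clonal expansion after antigen and in the choice between short-lived effector cells and memory cells. A naive T cell that meets antigen first grows and divides, switching on replication, mitosis, glycolysis, sterol synthesis and protein folding genes, and later either becomes a cytotoxic effector cell or returns to a resting state kept by genes such as Tcf7 and Il7r. The series compares the genotypes at an early and a later time of this course, and the interaction asks which genes followed a different course in KO cells.

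Libraries held 1545391 to 2011247 reads and 11257 to 11973 detected genes, so that 1 read was worth 0.497 to 0.647 CPM. Replicate 2 of the KO day 5 group stood apart from its partners, with chi-square statistics of 5.38 and 5.21 per degree of freedom when set against them, where no other replicate pair exceeded 2.45. Results that rest on that group are therefore also given without it where a named call or a count of calls depended on it. Ezh2 (ENSMUSG00000029687, chr6:47530139-47595341, minus strand, GRCm38) itself stood at 357, 374 and 409 CPM in WT and 377, 334 and 311 CPM in KO libraries at day 3. At day 5 it stood at 306, 319 and 316 CPM in WT and 158, 283 and 161 CPM in KO libraries, where replicate 2 was the highest of the KO libraries. Its interaction missed the threshold with all libraries (-0.54 ± 0.21 SE, limma adjusted p = 0.093) and passed it without that replicate (-0.81, limma adjusted p = 6.57e-06). A 3′ tag counts any transcript that keeps the 3′ end of the gene, so these values do not test the genotype labels. Markers of the labelled cell type were present throughout: the 9 CD8 T cell markers summed to 3174 to 5274 CPM over all libraries. Defining markers of other cells, such as Spi1 and C1qa of myeloid cells, Trdc of gamma delta T cells and Cdh5 of endothelium, had 0 reads, but several other members of the marker lists had more reads in KO than in WT. Among these, chosen after their values were seen, the dendritic cell receptor gene Xcr1 had 323 reads in KO and 41 in WT at day 5, the MHC class II gene H2-Aa 237 and 1, the lysosomal gene Cd68 58 and 20, and the carbonic anhydrase gene Car2 of the erythroid list 140 and 3. Csf1r, a macrophage receptor gene, had 18 reads in KO at day 3 and 3 in KO at day 5. Other members of the marker lists, also chosen after their values were seen, had fewer reads in KO. Ctss had 269 reads in KO and 348 in WT at day 3, and 305 and 413 at day 5. Apoe had 10 in KO and 22 in WT at day 3, and 17 and 25 at day 5. The erythroid and platelet list moved higher at 1 of 7 tested genes, Car2, and at 0 with edgeR, beside 4.01% over all tested genes. The sum of the list was 5.33 to 17.2 CPM in WT and 19.4 to 61.3 CPM in KO at day 3, and 11.9 to 22.2 CPM in WT and 42.7 to 72.7 CPM in KO at day 5. The part of other cells in the results was not tested.

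The genotype difference changed between the days at 1468 of 11417 genes (12.9%). It moved towards lower KO levels at 1010 genes (8.85%) and towards higher KO levels at 458 genes (4.01%), and 532 of the 1468 genes changed by at least 2-fold. Over all tested genes the median interaction was -0.11 and the median SE 0.32 on the log2(CPM + 1) scale, and 2933 genes had an unadjusted p below 0.05. The genotypes themselves differed at 2100 genes at day 3 (18.4%), with KO higher at 1275 (11.2%) and lower at 825 (7.23%). They differed at 4501 genes at day 5 (39.4%), with KO higher at 1885 (16.5%) and lower at 2616 (22.9%). Of the 2100 genes called at day 3, 90.2% kept the sign of their difference at day 5. Across the tested genes the 2 differences had a Pearson r of 0.62 and a Spearman rho of 0.55, as a description over genes, which are not independent replicates. The direction of the calls depends on how libraries are scaled. Higher calls made up 31.2% of the total on CPM, 38.4% with TMM scaling, 42.8% with quantile normalization, 44.4% with DESeq2 and 45.4% with median-of-ratios scaling, where the median interaction of all genes was -0.02.

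Sorting the 1468 genes showed mostly growth of the genotype difference. A difference that was larger at day 5 and called there stood at 366 genes with KO above WT (3.21% of tested genes) and at 822 genes with KO below WT (7.2%). The difference shrank at 128 genes where KO had been above WT at day 3 (1.12%) and at 51 genes where KO had been below (0.447%). It turned its sign, with opposite calls at the 2 days, at 32 genes from higher to lower in KO (0.28%) and at 25 genes from lower to higher (0.219%). The remaining 44 genes (0.385%) met none of these definitions, 43 of them because no call was made at either day. Of the genes that grew downwards, 660 of 822 were called at day 5 and not at day 3, and the median KO to WT difference of the class went from -0.16 to -0.99 (log2). Of the 366 that grew upwards, 277 were called at day 5 and not at day 3, and the median went from 0.09 to 1.06 (log2). Because these day differences define the classes, they describe the sorting and are no separate test.

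**Figure D1:**
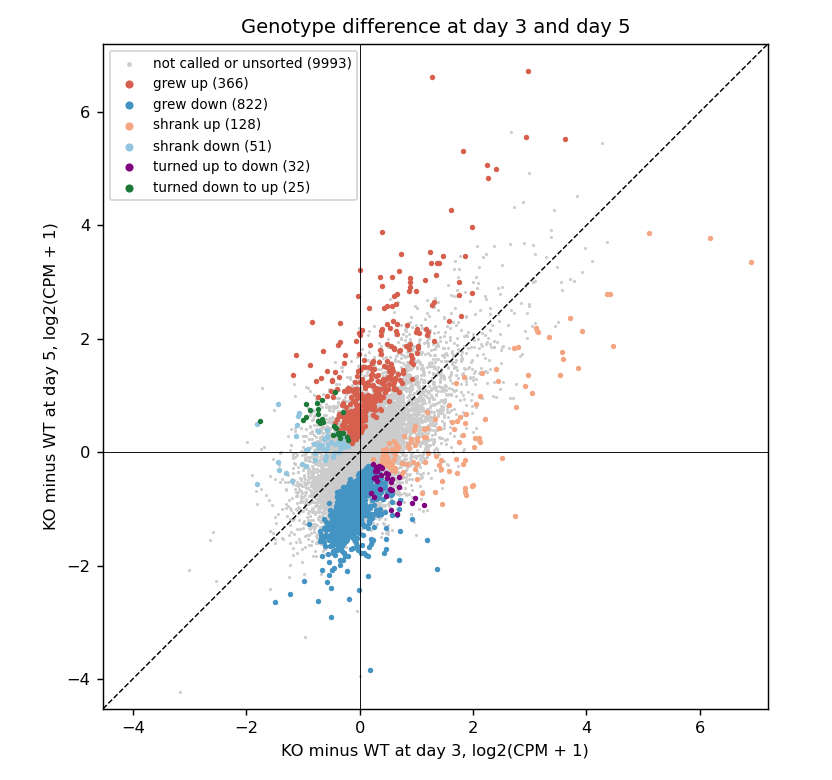
Each point is 1 of 11417 tested genes, with the KO minus WT difference at day 3 on the x axis and at day 5 on the y axis, both as log2(CPM + 1), and the dashed line marks equal differences. The 822 genes that grew downwards lie below the line near an x of 0, the 128 genes whose higher KO level shrank lie to the right below it, and the genes that turned sign fill the upper left (25) and lower right (32) quadrants.

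The same interaction can be read as the change from day 3 to day 5 in KO cells minus that in WT cells, which sets the day calls of the genotypes side by side. WT cells changed at 1249 genes (10.9% of tested genes), 819 upwards (7.17%) and 430 downwards (3.77%). KO cells changed at 4006 genes (35.1%), 1759 upwards (15.4%) and 2247 downwards (19.7%). Of the 1468 interaction genes, 1044 (71.1%) had a day call in KO and none in WT, 113 (7.70%) had one in WT and none in KO, 263 had both and 48 had neither. A missing call does not show that a genotype stayed the same. Because the 1468 genes were selected on this same difference between day changes, the shares describe the sorting and are no separate test. The largest single pattern, at 713 genes, was a fall in KO with no call in WT, followed by a rise in KO with no call in WT at 331 genes. Among the 822 genes that grew downwards, 632 fell in KO with no call in WT. The genes whose higher KO level shrank were an exception to this order: in 43 of 128 WT rose with no call in KO, in 44 KO fell with no call in WT, and in 23 both rose. The share of interaction genes with a day call in KO and none in WT was 63.5% without replicate 2 of the KO day 5 group and 70.7% and 70.4% without each of its partners.

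**Figure D2:**
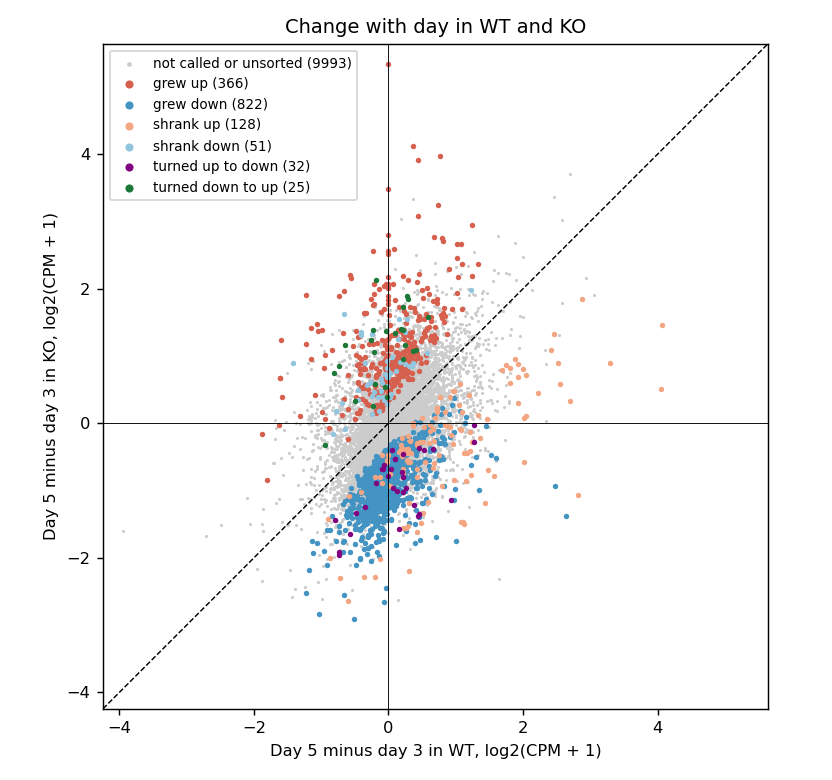
Each point is 1 of 11417 tested genes, with the day 5 minus day 3 change in WT on the x axis and in KO on the y axis, both as log2(CPM + 1). Genes that grew upwards (366) or downwards (822) spread mainly along the y axis near an x of 0, while part of the 128 genes whose higher KO level shrank lies far to the right, where WT rose.

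Genes of cell division moved lower in KO as a block. Of 50 genes of DNA replication and S phase, all tested, 43 moved lower and 0 higher, and of 60 genes of G2 and mitosis 55 moved lower and 0 higher, beside 8.85% lower calls over all tested genes. The median interaction was -1.08 for S phase and -1.10 for G2/M on the log2(CPM + 1) scale, against -0.11 for all tested genes. At day 3, 16 of 50 S phase and 9 of 60 G2/M genes were called lower in KO and 0 higher, and at day 5 the calls were 50 of 50 and 58 of 60 lower. Within KO all 50 S phase genes and 57 of 60 G2/M genes fell from day 3 to day 5, whereas in WT 12 and 2 fell and 1 and 5 rose. The summed S phase level was 9323 to 9540 CPM in WT and 7355 to 8007 CPM in KO libraries at day 3, and 8055 to 8170 CPM in WT and 3089 to 3312 CPM in KO libraries at day 5, with no overlap at either day. In bulk libraries fewer dividing cells and less of these transcripts per cell cannot be told apart. Over all alternative settings, 33 to 46 S phase and 47 to 57 G2/M genes moved lower and 0 moved higher.

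Mki67 (ENSMUSG00000031004, chr7:135689784-135716361, minus strand, GRCm38), which encodes the proliferation antigen Ki-67, stood at 771, 804 and 811 CPM in WT and 930.3, 913 and 846 CPM in KO libraries at day 3. Its day 5 level was 1022, 909 and 959 CPM in WT and 383, 439 and 424 CPM in KO libraries. All KO libraries were above all WT libraries at day 3 and all were below them at day 5, though the day 3 difference was not called. Its interaction was the smallest in adjusted p of the G2/M list (-1.38 ± 0.10 SE, limma adjusted p = 2.36e-08), with a 2.32-fold lower mean in KO at day 5. Top2a (ENSMUSG00000020914, chr11:98992943-99024189, minus strand, GRCm38), the topoisomerase that untangles sister chromatids, stood at 2824, 2804 and 2892 CPM in WT and 2164, 2334 and 2292 CPM in KO at day 3. At day 5 it was not called as changed in WT, at 2960, 2909 and 2931 CPM, and had fallen to 1078, 969 and 1109 CPM in KO. The groups did not overlap at either day, and the mean was 1.25-fold lower in KO at day 3 and 2.79-fold lower at day 5 (interaction -1.15 ± 0.09 SE, limma adjusted p = 6.73e-08). Tacc3 and Nusap1, both proteins of the mitotic spindle, overlapped between genotypes at day 3 and were 3.00-fold and 2.64-fold lower in KO at day 5.

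Replication genes moved alike. Hells (ENSMUSG00000025001, chr19:38930915-38971051, plus strand, GRCm38), a chromatin remodeller of the replication fork, stood at 346, 358 and 363 CPM in WT and 264, 272 and 238 CPM in KO libraries at day 3. By day 5 the libraries held 308, 292 and 277 CPM in WT and 86.1, 75.2 and 94.1 CPM in KO. The KO libraries were below the WT libraries at both days, by 1.38-fold and then by 3.44-fold in the mean (interaction -1.31 ± 0.13 SE, limma adjusted p = 8.51e-07). Uhrf1, which brings the maintenance methyltransferase DNMT1 to replicated DNA, went from 1.29-fold to 3.28-fold lower in KO (interaction -1.33 ± 0.12 SE, limma adjusted p = 2.23e-07). Lig1, the ligase that joins Okazaki fragments, went from 1.31-fold to 3.04-fold lower, and Dut, which clears dUTP, from 1.26-fold to 2.79-fold lower. The 43 S phase genes that moved include the helicase subunits Mcm2, Mcm3, Mcm4, Mcm5, Mcm6 and Mcm7, the clamp Pcna and the nucleotide reductase genes Rrm1 and Rrm2. Of 8 CDK inhibitor genes 0 moved higher and 3 moved lower, beside 4.01% and 8.85% over all tested genes. Cdkn3 grew downwards, a call lost under 5 alternatives, while the higher KO level of Cdkn2a and Cdkn2b shrank. For Cdkn2a and Cdkn2b, KO libraries lay above WT at each day, and day 5 libraries lay above day 3 in each genotype. The summed level of the 8 genes was 739 to 777.7 CPM in WT and 1909 to 2383 CPM in KO at day 3. At day 5 it was 725.1 to 872.8 CPM in WT and 1877 to 3127 CPM in KO, where the 1877 CPM were those of replicate 2. Without replicate 2 of the KO day 5 group 2 CDK inhibitor genes moved higher and 2 lower.

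Promoters are shown for 3 of these genes because a short motif recurs in the promoters of each list. E2F factors bind TTTGGCGC-like letters of replication genes, and the cell cycle homology region (CHR), TTTGAA, is bound by the complex that times mitotic genes. In windows from 250 bases before to 50 after the start (RefSeq, GRCm38.p6), on both strands, TTTGAA stood in 37 of 51 matched G2/M genes (72.5%), against 14.4% of the 9153 matched tested genes and 17.9% of all 32851 windows. TTTGGCGC, TTTCCCGC, TTTCGCGC or TTTGCCGC stood in 17 of 41 matched S phase genes (41.5%), against 4.97% of tested genes and 2.26% of all windows. Genes with several starts have several windows, and a match is a description and not a measured site. The 250 bases before the RefSeq start are printed 5′ to 3′ on the strand of the gene, with the motif in capitals; for Hells, and for the ER genes shown later, GENCODE places the outer bound of the gene inside this stretch.
Hells, chr19:38930740-38930989, plus strand, TTTCCCGC at 62 bases before the start: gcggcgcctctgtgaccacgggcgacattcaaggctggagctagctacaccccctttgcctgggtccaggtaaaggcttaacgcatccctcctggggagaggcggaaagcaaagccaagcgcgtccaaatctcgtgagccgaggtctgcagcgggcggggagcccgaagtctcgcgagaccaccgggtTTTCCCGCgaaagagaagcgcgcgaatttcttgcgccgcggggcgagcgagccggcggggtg
Mki67, chr7:135716380-135716629, minus strand, TTTGAA at 116 and 98 bases before the start: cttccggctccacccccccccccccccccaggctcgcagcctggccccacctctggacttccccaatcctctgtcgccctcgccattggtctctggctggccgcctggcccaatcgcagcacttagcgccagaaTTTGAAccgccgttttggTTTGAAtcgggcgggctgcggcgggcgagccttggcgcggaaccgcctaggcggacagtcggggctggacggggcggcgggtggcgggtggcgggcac
Top2a, chr11:99024190-99024439, minus strand, TTTGAA at 179 bases and, on the other strand as TTCAAA, at 23 bases before the start: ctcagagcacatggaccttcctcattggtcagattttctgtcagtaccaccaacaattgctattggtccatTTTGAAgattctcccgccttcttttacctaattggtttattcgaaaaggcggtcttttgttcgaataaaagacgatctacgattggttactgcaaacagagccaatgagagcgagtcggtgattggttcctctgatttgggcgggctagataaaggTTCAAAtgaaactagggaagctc

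**Figure D3:**
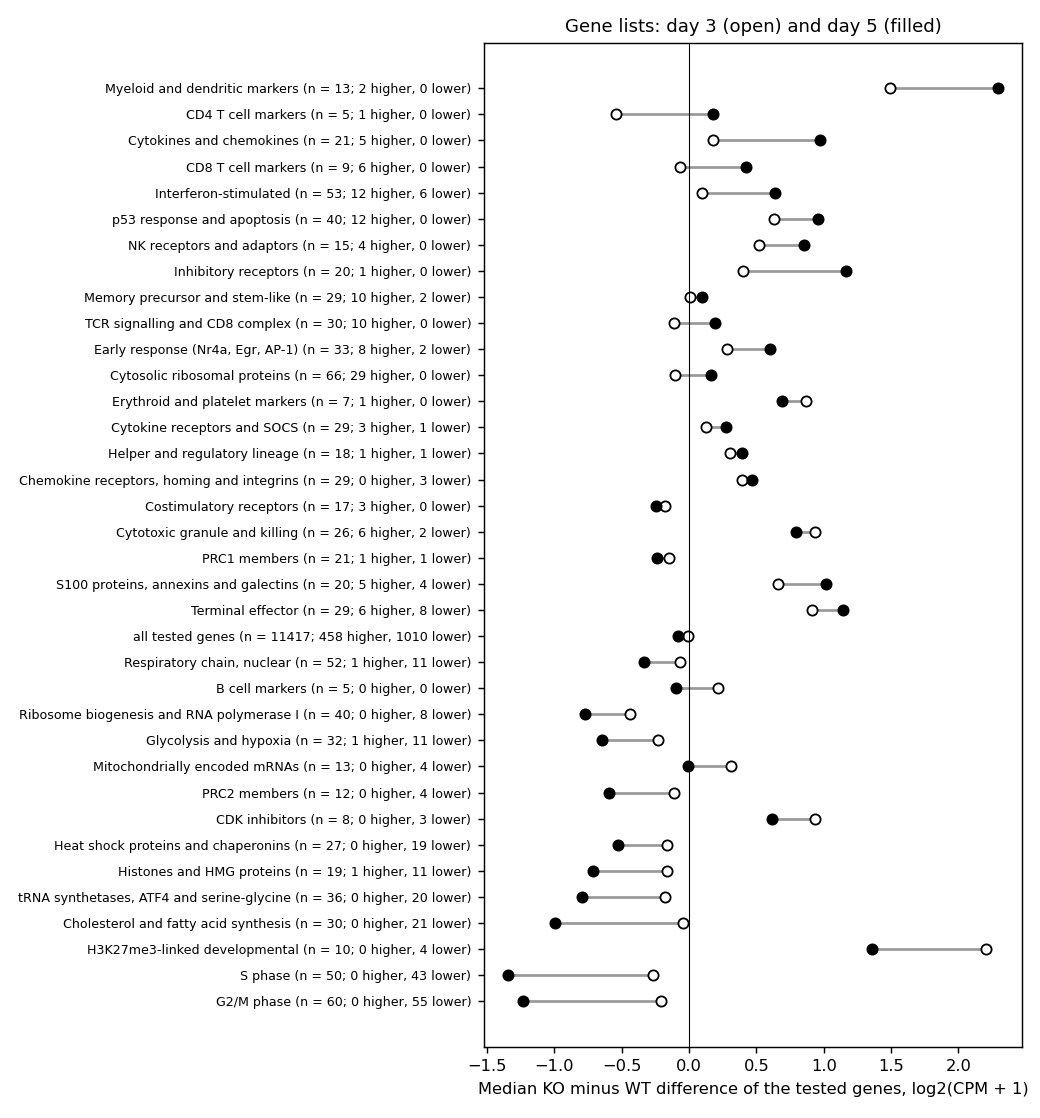
Each row is a gene list with its number of tested genes and of interaction calls in each direction, and the points give the median KO minus WT difference of its tested genes at day 3 (open) and day 5 (filled) as log2(CPM + 1). S phase and G2/M genes move furthest to the left, with medians from -0.27 to -1.34 and from -0.20 to -1.23, while the H3K27me3-linked genes stay to the right of 0 and come closer to it.

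Histone and HMG genes, which package DNA, moved mostly in the same direction. Of 19 tested histone and HMG genes 11 moved lower and 1 higher (7 to 12 lower over the alternatives), beside 8.85% and 4.01% over all tested genes. The median interaction of the list was -0.61. Hmgb2, a chromatin architectural protein of dividing cells, stood at 2371 ± 53.6 CPM (SD, n = 3) in WT and 1929 ± 90.0 in KO at day 3, and at 2267 ± 37.3 in WT and 919 ± 86.1 in KO at day 5 (interaction -1.01 ± 0.10 SE, limma adjusted p = 8.87e-07). Hmgb3 did not differ by the test at day 3 and was 3.34-fold lower in KO at day 5 (interaction -1.69 ± 0.17 SE, limma adjusted p = 7.79e-07). The 1 histone gene that moved higher, H1f2, a linker histone, turned from 1.34-fold lower to 2.12-fold higher in KO (interaction 1.51 ± 0.19 SE, limma adjusted p = 1.29e-05). Of the 12 tested PRC2 members 4 moved lower and 0 higher: Suz12, Rbbp4, Rbbp7 and Epop, the last of which was not called without replicate 3 of WT day 3 or replicate 1 of KO day 3 (limma adjusted p = 0.0548 and 0.0705) or with DESeq2 (adjusted p = 0.0868), while Rbbp4 was not called without the trend in the prior, that is, with a prior variance in limma that does not follow the expression level (limma adjusted p = 0.0966). Suz12, the core subunit without which PRC2 does not assemble, stood at 774, 719 and 693 CPM in WT and 552, 589 and 547 CPM in KO libraries at day 3. The day 5 libraries gave 646, 688 and 668 CPM in WT and 368, 309.6 and 334 CPM in KO. KO libraries were lower at both days, and the mean difference went from 1.29-fold to 1.98-fold (interaction -0.62 ± 0.11 SE, limma adjusted p = 0.000512). Among 21 PRC1 members the chromobox gene Cbx6 moved lower (-0.80 ± 0.14 SE, limma adjusted p = 0.00048).

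Sterol and fatty acid synthesis genes diverged in time: many members rose in WT and many fell in KO, though these need not be the same genes. Of 30 tested genes 21 moved lower and 0 higher, beside 8.85% and 4.01% over all tested genes, with a median interaction of -0.92. In WT 17 of the 30 rose and 0 fell from day 3 to day 5, and in KO 13 fell and 2 rose. Their summed level was 3588 to 3707 CPM in WT and 3389 to 3476 CPM in KO at day 3, and 4928 to 5118 CPM in WT and 2693 to 2971 CPM in KO at day 5. Cyp51, the lanosterol demethylase, stood at 229.8, 245 and 284 CPM in WT and 234, 238 and 226 CPM in KO libraries at day 3. At day 5 it stood at 406, 372 and 368 CPM in WT and 149, 166 and 162 CPM in KO. The overlapping day 3 groups had moved apart, WT up and KO down, to a 2.40-fold lower mean in KO (interaction -1.14 ± 0.12 SE, limma adjusted p = 2.57e-06). Idi1, an isomerase of isoprenoid units, rose 1.77-fold in WT and fell 1.46-fold in KO (interaction -1.34 ± 0.16 SE, limma adjusted p = 9.49e-06). Fasn, the fatty acid synthase, showed no called change in WT and fell in KO (interaction -0.95 ± 0.12 SE, limma adjusted p = 1.38e-05). Hsd17b7 and Nsdhl, late enzymes of cholesterol synthesis, turned sign: Hsd17b7 went from 1.48-fold higher to 1.98-fold lower in KO (interaction -1.56 ± 0.25 SE, limma adjusted p = 0.000227). TCACNCCAC, the sterol regulatory element as searched, stood in 1 of 21 matched promoters of the list (4.76%), against 1.33% of tested genes.

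Amino acid and tRNA charging genes showed the same kind of divergence. Of 36 tested genes of tRNA synthetases, the ATF4 response and serine and glycine synthesis, 20 moved lower and 0 higher (13 to 22 lower over the alternatives). Over all tested genes 8.85% moved lower and 4.01% higher. The median interaction of the list was -0.64. In WT 16 rose and 0 fell, and in KO 16 fell and 0 rose, again not necessarily the same genes. Phgdh, which opens serine synthesis, stood at 294, 309 and 298 CPM in WT and 249, 234 and 207 CPM in KO libraries at day 3. Its day 5 level was 309.7, 324 and 296 CPM in WT and 122, 104 and 113 CPM in KO. KO was lower at both days without overlap, by 1.31-fold and 2.74-fold (interaction -1.06 ± 0.13 SE, limma adjusted p = 6.17e-06). Psat1, the next enzyme, rose 1.36-fold in WT and fell 1.61-fold in KO (interaction -1.12 ± 0.16 SE, limma adjusted p = 5.01e-05). Shmt2, which makes glycine in mitochondria, had an interaction of -0.93 ± 0.15 SE, limma adjusted p = 0.000188. Nars, the asparagine tRNA synthetase, turned from 1.20-fold higher to 1.74-fold lower in KO (interaction -1.05 ± 0.12 SE, limma adjusted p = 4.48e-06). The letters TGATGNAA, a core of ATF4 target elements, stood in 10 of 28 matched promoters of the list (35.7%), against 2.87% of tested genes and 3.97% of all windows.

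Energy metabolism moved in the same direction at fewer genes. Of 32 glycolysis and hypoxia genes 11 moved lower and 1 higher (median -0.32), and of 52 nuclear genes of the respiratory chain 11 moved lower and 1 higher (median -0.27), beside 8.85% lower and 4.01% higher calls over all tested genes. Without the trend in the prior 3 of the 52 moved lower, and without replicate 1 of WT day 5 it was 6. Hk2, the inducible hexokinase, went from 1.35-fold to 2.36-fold lower in KO (interaction -0.81 ± 0.15 SE, limma adjusted p = 0.00119). Bnip3, a mitophagy receptor induced by low oxygen, did not pass the test at day 3 and was 2.03-fold lower in KO at day 5 (interaction -1.03 ± 0.13 SE, limma adjusted p = 1.29e-05). Slc16a3, the lactate exporter MCT4, and Egln3, an oxygen sensor, had interactions of -0.73 (limma adjusted p = 0.000508) and -0.94 (limma adjusted p = 0.00167). Atp5b, a catalytic subunit of ATP synthase, went from 529 ± 10.5 CPM (SD, n = 3) in WT and 479.6 ± 27.3 in KO at day 3 to 489 ± 13.2 and 279 ± 12.5 at day 5 (interaction -0.67 ± 0.10 SE, limma adjusted p = 0.00014). Uqcrh, a hinge protein of complex III, was the respiratory gene that moved higher (interaction 0.73 ± 0.11 SE, limma adjusted p = 0.000138). Transcripts of the mitochondrial genome moved lower at 4 of 13 genes (1 to 6 over the alternatives) and higher at 0, among them mt-Nd1 (-0.68 ± 0.11 SE, limma adjusted p = 0.000227). Their share was 2.07% of reads in replicate 2 of the KO day 5 group and 3.00% and 3.12% in its partners; without that replicate 5 of the 13 moved lower.

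Ribosome production and ribosomal proteins went apart. Of 40 ribosome biogenesis genes 8 moved lower and 0 higher (median -0.30), beside 8.85% lower calls over all tested genes. It was 1 lower without the trend in the prior and 3 with median-of-ratios scaling, although 28 were already lower in KO at day 3 and 38 at day 5. Fbl, the methyltransferase of ribosomal RNA, went from 1.34-fold to 1.99-fold lower in KO (interaction -0.58 ± 0.12 SE, limma adjusted p = 0.00185). Ncl, the nucleolar protein nucleolin, had an interaction of -0.39 ± 0.10 SE, limma adjusted p = 0.00928, which lost its call with median-of-ratios scaling (limma adjusted p = 0.0737) and without the trend in the prior (0.117). Of the 66 cytosolic ribosomal protein genes 29 moved higher and 0 lower (median 0.27), beside 4.01% higher calls over all tested genes. Rpl19, a protein of the large subunit, stood at 1452, 1442 and 1409 CPM in WT and 1327, 1278 and 1366 CPM in KO at day 3, and at 1412, 1456 and 1438 CPM in WT and 1916, 1987 and 1812 CPM in KO at day 5. WT did not pass the test between days and the KO libraries went from below to above it (interaction 0.52 ± 0.09 SE, limma adjusted p = 0.000414). The summed level of the 66 genes was 114900 to 122300 CPM in KO at day 3 and 135700 to 136900 CPM in KO at day 5. These changes are small, and the count ran from 5 to 46 higher over the alternative settings with 0 lower in each. Without replicate 2 of the KO day 5 group 42 ribosomal protein genes moved higher and 16 biogenesis genes moved lower.

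Chaperones moved lower, some of them through a change of sign. Of 27 tested heat shock, chaperonin and endoplasmic reticulum (ER) folding genes 19 moved lower and 0 higher (9 to 21 lower over the alternatives), with a median interaction of -0.55. Over all tested genes 8.85% moved lower and 4.01% higher. Of the 19, 12 grew downwards, 2 shrank from a higher KO level and 5 turned from higher to lower in KO: Hspa5, Hsp90b1, Dnajb11, Pdia4 and Pdia6, all of which work inside the ER. Hsp90b1 (ENSMUSG00000020048, chr10:86690209-86705509, minus strand, GRCm38), the ER chaperone GRP94, stood at 1134, 1162 and 1136 CPM in WT and 1683, 1716 and 1622 CPM in KO libraries at day 3. By day 5 the libraries held 811, 720.1 and 770.1 CPM in WT and 475, 629.6 and 509.8 CPM in KO. Every KO library was above WT at day 3 and below WT at day 5. The mean was 1.46-fold higher in KO and then 1.43-fold lower (interaction -1.07 ± 0.12 SE, limma adjusted p = 3.64e-06); it fell with time in both genotypes, by 1.49-fold in WT and 3.11-fold in KO. Pdia6 (ENSMUSG00000020571, chr12:17266545-17284770, plus strand, GRCm38), a disulfide isomerase, stood at 299, 279.7 and 259.7 CPM in WT and 397, 422 and 417 CPM in KO at day 3. The day 5 libraries gave 161, 177 and 167 CPM in WT and 110, 93.1 and 112 CPM in KO, again with opposite order and no overlap at each day (interaction -1.24 ± 0.13 SE, limma adjusted p = 1.39e-06). Pdia4, a related isomerase, went from 1.39-fold higher to 1.29-fold lower in KO (interaction -0.84 ± 0.13 SE, limma adjusted p = 0.000195). Outside the ER, Hspd1, the mitochondrial chaperonin HSP60, was lower in KO at both days, 1.35-fold and then 2.33-fold (interaction -0.79 ± 0.11 SE, limma adjusted p = 4.58e-05).

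Promoters of 2 of the ER genes are shown because they carry the ER stress response element (ERSE), to which ATF6 and NF-Y bind. The element as searched on both strands was CCAAT, then 9 bases of any kind, then CCACG, and it stood in 5 of 22 matched chaperone promoters (22.7%), against 0.175% of the matched tested genes and 0.119% of all windows. It stood in 10.3% of the 29 matched genes that turned from higher to lower. These include Pdia6 and Hsp90b1, which the chaperone count also holds, so that share is no separate result. Capitals mark the element, and Hsp90b1 has it in both orientations.
Pdia6, chr12:17266339-17266588, plus strand, element at 98 bases before the start: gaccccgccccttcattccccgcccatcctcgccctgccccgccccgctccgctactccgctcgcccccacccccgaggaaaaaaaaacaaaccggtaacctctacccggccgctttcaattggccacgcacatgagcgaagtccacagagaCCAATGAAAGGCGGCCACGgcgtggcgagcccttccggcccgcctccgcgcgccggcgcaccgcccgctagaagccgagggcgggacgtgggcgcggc
Hsp90b1, chr10:86705445-86705694, minus strand, elements at 212 and 107 bases before the start: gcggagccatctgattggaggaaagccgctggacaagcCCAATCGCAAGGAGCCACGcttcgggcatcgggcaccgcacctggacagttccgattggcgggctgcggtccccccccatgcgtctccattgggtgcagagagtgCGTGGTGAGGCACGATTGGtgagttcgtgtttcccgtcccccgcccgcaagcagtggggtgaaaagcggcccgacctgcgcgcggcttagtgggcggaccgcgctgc

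Among the other genes that turned from higher to lower in KO were those with the largest interactions of the class. Gpsm2, which orients the mitotic spindle, stood at 9.48, 13.8 and 15.3 CPM in WT and 27.8, 29.7 and 29.0 CPM in KO at day 3, and at 31.6, 20.6 and 23.7 CPM in WT and 11, 14.2 and 12.6 CPM in KO at day 5. WT rose and KO fell (interaction -2.07 ± 0.31 SE, limma adjusted p = 0.000119). E2f7, a repressor of E2F target genes, stood at 24.9, 22.7 and 19.9 CPM in WT and 35.3, 31.9 and 40.5 CPM in KO at day 3, and at 23.4, 31.8 and 21.5 CPM in WT and 9.71, 9.87 and 15.2 CPM in KO at day 5. It was 1.60-fold higher and then 2.21-fold lower in KO (interaction -1.74 ± 0.30 SE, limma adjusted p = 0.000414). Nucb2, a calcium-binding protein of the secretory pathway, and Reep1, an ER-shaping protein, turned with interactions of -1.82 (limma adjusted p = 0.0039) and -1.79 (limma adjusted p = 0.00133). Utp14b, a ribosome biogenesis gene, turned with -1.59 (limma adjusted p = 0.00014) and Nsdhl with -1.30 (limma adjusted p = 0.00799). All 32 genes that turned downwards and 24 of the 25 that turned upwards had no overlap between genotypes at either day. The sorting by opposite calls favours such an order. The share of all tested genes without overlap at both days was not counted, so these counts are a description only. The number that turned depends on replicate 2 of the KO day 5 group: without it 54 genes turned downwards, 31 of the 32 among them, and 53 turned upwards, 20 of the 25 among them.

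Some genes of resting and memory T cells turned the other way. Of 29 tested memory precursor and stem-like genes 10 moved higher and 2 lower (5 to 13 higher over the alternatives), with a median interaction of 0.38. Calls over all tested genes were 4.01% higher and 8.85% lower. Of the 10, 4 turned from lower to higher in KO: Tcf7, Bach2, Il7r and Ltb. Tcf7 (ENSMUSG00000000782, chr11:52252371-52283014, minus strand, GRCm38), which encodes the stem-like T cell factor TCF-1, stood at 35.5, 28.2 and 32.9 CPM in WT and 13.4, 15.7 and 20.2 CPM in KO libraries at day 3. At day 5 it stood at 50.8, 32.9 and 37.3 CPM in WT and 65.4, 61.7 and 56.9 CPM in KO. All KO libraries were below WT at day 3, by 1.96-fold in the mean, and all were above WT at day 5, by 1.52-fold (interaction 1.55 ± 0.26 SE, limma adjusted p = 0.000295). Tcf7 rose 3.73-fold in KO, while no change with day was called in WT. Il7r (ENSMUSG00000003882, chr15:9505788-9530176, minus strand, GRCm38), the receptor for the survival cytokine IL-7, stood at 99.5, 115 and 117 CPM in WT and 58.2, 62.7 and 90.8 CPM in KO at day 3. Its day 5 level was 66.0, 74.7 and 57.6 CPM in WT and 120.4, 123 and 135 CPM in KO. Here WT fell and KO rose, and the order reversed without overlap (interaction 1.59 ± 0.20 SE, limma adjusted p = 1.3e-05). Bach2, a repressor that holds back effector genes, stood at 52.1, 53.2 and 53.3 CPM in WT and 27.4, 33.5 and 24.6 CPM in KO at day 3, and at 44.4, 46.3 and 44.1 CPM in WT and 89.9, 60.4 and 79.6 CPM in KO at day 5 (interaction 1.62 ± 0.21 SE, limma adjusted p = 2.42e-05). Ltb, the gene of lymphotoxin beta, stood at 171, 154 and 159 CPM in WT and 66.6, 80.6 and 97.4 CPM in KO at day 3, and at 81.2, 105 and 89.3 CPM in WT and 167, 123 and 124 CPM in KO at day 5 (interaction 1.57 ± 0.19 SE, limma adjusted p = 1.19e-05). Not every gene of naive and memory cells took that course. The 2 that moved lower were Id3 and Ccr7. Id3 grew downwards, with an interaction of -1.74 (limma adjusted p = 0.000757). Ccr7, the lymph node homing receptor, was 1.54-fold lower in KO at day 3 and 2.56-fold lower at day 5 (interaction -0.73 ± 0.19 SE, limma adjusted p = 0.0135). The Ccr7 call was lost without replicate 2 of KO day 3 (limma adjusted p = 0.0527) and without the trend in the prior (0.0742).

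**Figure D4:**
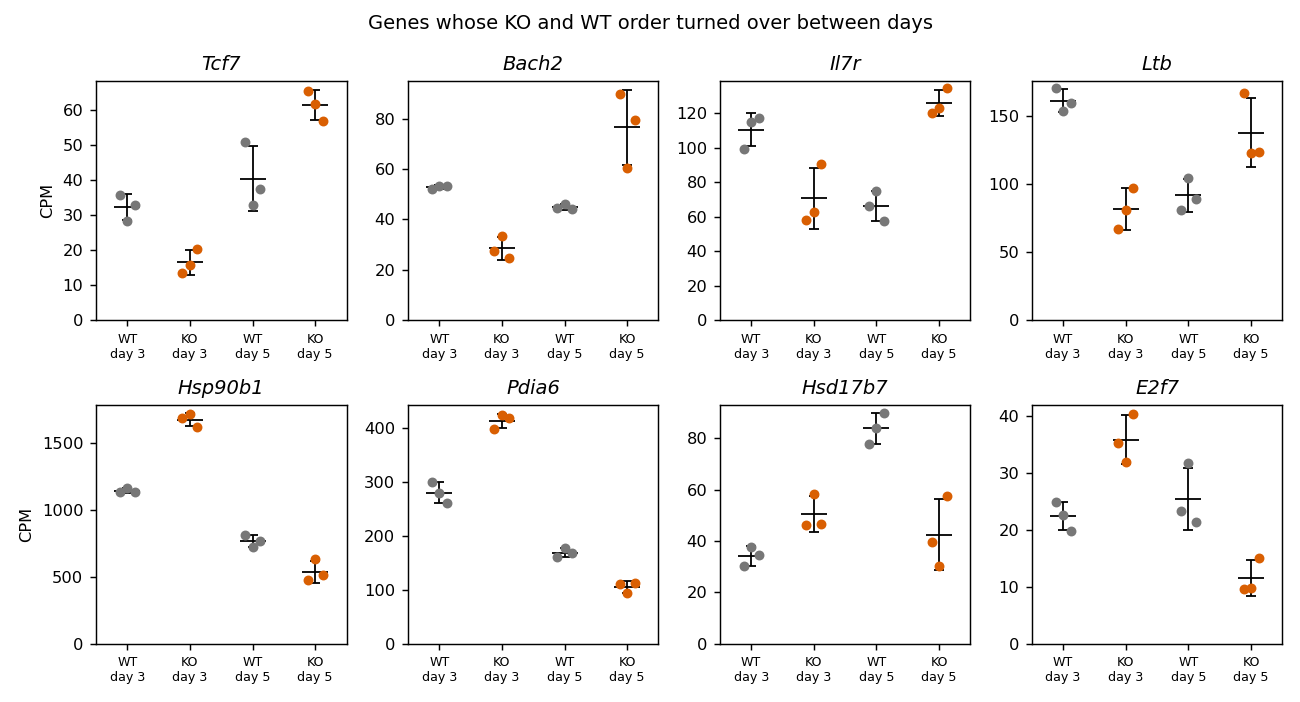
Each point is the CPM of a library for 8 genes that turned sign, with WT in grey and KO in orange at day 3 and day 5, the long bar the mean and the short bars the SD of 3 libraries. KO lies below WT at day 3 and above it at day 5 for Tcf7, Bach2, Il7r and Ltb, and above it at day 3 and below it at day 5 for Hsp90b1, Pdia6, Hsd17b7 and E2f7.

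Further genes that turned upwards include the interferon-inducible Ifi27l2a, which had the largest interaction of the class. It stood at 124, 124 and 129 CPM in WT and 42.3, 37.9 and 30.1 CPM in KO at day 3, and at 127, 98.7 and 107 CPM in WT and 151, 212 and 134 CPM in KO at day 5. KO went from 3.42-fold lower to 1.49-fold higher (interaction 2.31 ± 0.21 SE, limma adjusted p = 2.23e-07). Cd8a, the alpha chain of the CD8 co-receptor, stood at 319, 295 and 353 CPM in WT and 234, 226 and 266 CPM in KO at day 3. By day 5 the libraries held 236, 225 and 223 CPM in WT and 265, 324 and 332 CPM in KO, with a fall in WT and a rise in KO (interaction 0.83 ± 0.14 SE, limma adjusted p = 0.000255). Ipcef1 and Zfp219 turned with 1.62 (limma adjusted p = 9.99e-05) and 1.80 (limma adjusted p = 0.00269). Of the 30 genes of the T cell receptor (TCR) and CD8 complex and its signalling, 10 moved higher and 0 lower, beside 4.01% and 8.85% over all tested genes. Their median interaction was 0.36, with all 30 above 0. Cd3g, a signalling chain of the TCR complex, stood at 108, 108 and 112 CPM in WT and 104, 94.6 and 115 CPM in KO at day 3, and at 132, 123 and 131 CPM in WT and 234, 324 and 269.8 CPM in KO at day 5. The overlapping day 3 groups became a 2.15-fold difference (interaction 1.15 ± 0.15 SE, limma adjusted p = 2.81e-05). Cd3d moved likewise (0.81 ± 0.14 SE, limma adjusted p = 0.00038), as did Dgka, a kinase that ends diacylglycerol signals (1.33 ± 0.19 SE, limma adjusted p = 8.1e-05). Markers of the labelled cell type thus moved with the result: 6 of the 9 CD8 T cell markers moved higher and 0 lower. The sum of the 9 was 3446 to 3537 CPM in WT and 3174 to 3611 CPM in KO at day 3, and 3378 to 3453 CPM in WT and 4001 to 5274 CPM in KO at day 5. The 5274 CPM were those of replicate 2 of KO day 5, and its partners stood at 4001 and 4271 CPM. The part of these markers in the other results was not tested.

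Part of the genes of arrest and cell death grew upwards. Of 40 tested genes of the p53 response and apoptosis 12 moved higher and 0 lower (7 to 14 higher over the alternatives), with a median interaction of 0.50. Calls over all tested genes were 4.01% higher and 8.85% lower. The CDK inhibitor gene Cdkn1a was not called (interaction 0.35, limma adjusted p = 0.435). Btg1 (ENSMUSG00000036478, chr10:96617006-96622809, plus strand, GRCm38), an anti-proliferative gene of resting lymphocytes counted here in the early response list, stood at 126, 122 and 117 CPM in WT and 187, 169 and 242 CPM in KO libraries at day 3. The day 5 libraries gave 124, 142 and 124 CPM in WT and 1200, 1186 and 1196 CPM in KO. WT did not pass the test between days, and KO went from 1.64-fold to 9.20-fold above WT (interaction 2.50 ± 0.15 SE, limma adjusted p = 4.09e-10). Bcl2l11 (ENSMUSG00000027381, chr2:128126038-128162547, plus strand, GRCm38), which encodes the death-inducing protein BIM, stood at 51.5, 39.9 and 39.7 CPM in WT and 91.5, 88.7 and 87.0 CPM in KO at day 3. At day 5 it stood at 93.5, 90.8 and 84.8 CPM in WT and 438, 392 and 394 CPM in KO. It rose in both genotypes, 2.05-fold in WT and 4.58-fold in KO, so that the genotype difference grew from 2.04-fold to 4.55-fold (interaction 1.15 ± 0.15 SE, limma adjusted p = 2.66e-05). Bbc3, the p53 target PUMA, overlapped at day 3 and was 4.38-fold higher in KO at day 5 (interaction 1.68 ± 0.30 SE, limma adjusted p = 0.000548). Trp53inp1, another p53 target, went from 2.07-fold to 4.32-fold higher (interaction 1.06 ± 0.18 SE, limma adjusted p = 0.000301). Mdm2, the ligase that degrades p53 and is itself a p53 target, fell in WT and rose in KO, from 1.85-fold to 3.57-fold higher (interaction 0.95 ± 0.16 SE, limma adjusted p = 0.000324). In the early response list, 8 of 33 genes moved higher and 2 lower (3 to 9 higher over the alternatives), with Jund, an AP-1 subunit (0.93 ± 0.14 SE, limma adjusted p = 9.12e-05), and Dusp6, a phosphatase of ERK (0.81 ± 0.16 SE, limma adjusted p = 0.00166), among the 8. Without replicate 2 of the KO day 5 group 9 of the 33 moved higher and 4 lower.

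Among the effector molecules the granzymes went both ways. Of 26 cytotoxic genes 6 moved higher and 2 lower, beside 4.01% and 8.85% over all tested genes, with a median interaction of 0.08. Gzmb, Prf1 and Nkg7 were not called (interactions -0.10, 0.41 and 0.05, limma adjusted p = 0.791, 0.262 and 0.848). Gzmc, Gzmd, Gzme, Gzmf and Gzmg, neighbouring granzyme genes, grew upwards together with Serpinb6b, an inhibitor of granzyme-like proteases. Gzmg had 0, 0 and 0 CPM in WT and 3.48, 0 and 2.19 CPM in KO libraries at day 3, and 0, 0 and 0 CPM in WT and 76.4, 93.7 and 128 CPM in KO at day 5. WT had no read in any library, so KO was at least 174.9-fold higher at day 5, against the 0.569 CPM that 0 reads over the 3 WT libraries allow with a floor of 3 reads. Gzmd stood at 5.97, 5.95 and 8.75 CPM in KO at day 3 and 111, 139 and 157 CPM in KO at day 5, with at most 1.13 CPM in any WT library. Their interactions on the log2(CPM + 1) scale (5.34, limma adjusted p = 5.35e-06, for Gzmg and 3.75, limma adjusted p = 1.79e-05, for Gzmd) rest on groups with 0 reads, and edgeR on the reads did not call them (adjusted p = 0.9999 and 0.857). With edgeR 1 of the 26 cytotoxic genes moved higher. Reads of these near-identical genes may be divided between them in a way that the files do not show. Floors cover counting error only. Serpinb6b had reads in every library and went from 1.49-fold to 2.98-fold higher in KO (interaction 1.00 ± 0.20 SE, limma adjusted p = 0.00176).

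The same limit touches several of the largest upward interactions. Ly6g, known as a neutrophil surface protein, and Calca, the gene of calcitonin and CGRP, stood at 38.8, 56.1 and 65.7 CPM and 14.9, 11.1 and 15.8 CPM in KO at day 5, with at most 0.584 CPM in any WT library. Their limma calls (interaction 3.49, limma adjusted p = 0.000235, and 3.48, limma adjusted p = 0.000131) were not made by edgeR (adjusted p = 0.863 and 0.9999). Of all 1468 interaction genes, 73 had a highest group mean below 10 CPM and 37 had a group with 0 reads. Klrb1c, the NK receptor NK1.1, stood at 15.5, 14.2 and 10.1 CPM in KO at day 5 and at or below 1.17 CPM in every other library, and was called by limma (2.52 ± 0.59 SE, limma adjusted p = 0.00605) and not by edgeR (adjusted p = 0.819). Of 15 tested NK receptor and adaptor genes 4 moved higher and 0 lower (1 to 5 higher over the alternatives), beside 4.01% and 8.85% over all tested genes. Among the 4 was Hcst, the adaptor DAP10 (0.74 ± 0.20 SE, limma adjusted p = 0.0145), a call lost without the trend in the prior (limma adjusted p = 0.0502). Cd74, the invariant chain of MHC class II, stood at 16.9, 19.5 and 7.66 CPM in KO at day 3 and 53.7, 72.8 and 39.2 CPM in KO at day 5, with at most 1.19 CPM in WT (2.63 ± 0.52 SE, limma adjusted p = 0.00148; edgeR adjusted p = 0.0648). It stands in the list of myeloid and dendritic markers, of which 2 of 13 moved higher and whose sum was 105.4 to 142.3 CPM in WT and 152.0 to 223.9 CPM in KO at day 3, and 153.3 to 165.3 CPM in WT and 384.1 to 447.7 CPM in KO at day 5. Of the 13, 12 had an interaction above 0, and 0 to 6 moved higher over the alternatives, 0 with edgeR and 6 with a pseudocount of 5. Spi1, C1qa and S100a9 had 0 reads in all groups and Lyz2 1 read. The part of myeloid or dendritic cells in the result was not tested. Of the 5 tested markers of B cells 0 moved by limma, and of the 5 of CD4 T cells 1 did, Icos, the inducible co-stimulator (0.82 ± 0.13 SE, limma adjusted p = 0.000168), which fell in WT with no call in KO.

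Interferon-stimulated genes grew upwards in part, with 12 of 53 moving higher and 6 lower, beside 4.01% and 8.85% over all tested genes, and a median interaction of 0.51. Over the alternatives 7 to 15 moved higher and 4 to 7 lower, the latter near the share over all genes. Among the 6 are the genes Ifitm1, Ifitm2 and Ifitm3, whose products block virus entry and whose higher KO level shrank as WT rose. Ifitm1 (ENSMUSG00000025491, chr7:140967221-140969825, plus strand, GRCm38) stood at 42.6, 49.9 and 34.0 CPM in WT and 909.9, 859 and 1091 CPM in KO libraries at day 3. Its day 5 level was 685, 774 and 690.4 CPM in WT and 2542, 2616 and 2687 CPM in KO. KO was above WT at both days without overlap, by 22.6-fold and then by 3.65-fold (interaction -2.61 ± 0.15 SE, limma adjusted p = 4.09e-10). It rose 17.0-fold in WT and 2.74-fold in KO. Ifitm2 went from 7.01-fold to 1.74-fold higher in KO (-1.96 ± 0.16 SE, limma adjusted p = 5.4e-08) and Ifitm3 from 7.95-fold to 2.57-fold (-1.62 ± 0.14 SE, limma adjusted p = 1.05e-07).

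A higher KO level also shrank at single genes of Polycomb targets and of effector cells. Of 50 genes linked to H3K27me3 in other settings, 10 passed the expression filter, and all 10 were higher in KO at day 3; since such genes pass through the group where they are high, neither that count nor the next is more than a description. Of these 10, 4 moved lower and 0 higher, Cdkn2a, Cdkn2b, Msc and Igf2bp3, with 1 to 6 lower over the alternatives, beside 8.85% lower calls over all tested genes. Cdkn2a (ENSMUSG00000044303, chr4:89274471-89294653, minus strand, GRCm38), which encodes the inhibitors p16 and p19, stood at 2.96, 6.65 and 1.70 CPM in WT and 517, 469 and 567 CPM in KO libraries at day 3. By day 5 the libraries held 64.3, 77.5 and 71.8 CPM in WT and 806, 708 and 697 CPM in KO. The ratio of the means shrank from 137-fold to 10.4-fold (interaction -3.54 ± 0.31 SE, limma adjusted p = 1.64e-07), as WT rose 18.9-fold, and no change with day was called in KO. Cdkn2b, the neighbouring gene of p15, had an interaction of -1.34 ± 0.43 SE, limma adjusted p = 0.0425, which lost its call under 14 of 24 alternatives, among them the leaving out of any KO day 5 library. Msc, a transcription factor of muscle and lymphocytes, and Igf2bp3, an oncofetal RNA-binding protein, stood at 40.6 ± 13.7 and 72.9 ± 1.09 CPM (SD, n = 3) in KO at day 3 against 0.94 ± 0.625 and 13.2 ± 3.35 in WT. Their interactions were -1.61 (limma adjusted p = 0.0192) and -0.94 (limma adjusted p = 0.0122), but Msc lost its call without replicate 1 or replicate 2 of KO day 3 (limma adjusted p = 0.0762 and 0.0602) and with edgeR (adjusted p = 0.0585). DESeq2 did not call Msc or Igf2bp3 (adjusted p = 0.068 and 0.0619).

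Gzma (ENSMUSG00000023132, chr13:113093825-113100981, minus strand, GRCm38), the tryptase granzyme A, stood at 28.4, 26.0 and 15.9 CPM in WT and 1580, 1416 and 2236 CPM in KO libraries at day 3. The day 5 libraries gave 224, 253 and 221 CPM in WT and 2850, 3345 and 3396 CPM in KO. Both genotypes rose, WT by 9.92-fold and KO by 1.83-fold, and the ratio shrank from 74.4-fold to 13.8-fold (interaction -2.40 ± 0.23 SE, limma adjusted p = 4.51e-07). Of 29 terminal effector genes 8 moved lower and 6 higher, beside 8.85% and 4.01% over all tested genes, with a median interaction of -0.07. Without the trend in the prior 1 moved higher, and without replicate 2 of KO day 3 it was 3. Ccr2, a chemokine receptor of inflamed tissue, went from 4.41-fold to 1.99-fold higher in KO (-1.14 ± 0.13 SE, limma adjusted p = 4.95e-06). S100a6, a calcium-binding protein of effector cells, went from 8.70-fold to 4.58-fold (-0.92 ± 0.11 SE, limma adjusted p = 5.7e-06), and its relative S100a4 from 8.92-fold to 4.38-fold (-1.03 ± 0.17 SE, limma adjusted p = 0.000274). Lmna, the gene of the nuclear lamins A and C, went from 17.4-fold to 4.51-fold (-1.77 ± 0.28 SE, limma adjusted p = 0.000176). Ccl5, a chemokine of effector cells, grew instead, from 4.13-fold to 7.13-fold (0.83 ± 0.21 SE, limma adjusted p = 0.0121). Prdm1, which encodes the effector regulator BLIMP-1, stood at 36.1, 34.9 and 28.4 CPM in WT and 92.5, 107 and 133 CPM in KO at day 3, and at 48.5, 44.6 and 30.5 CPM in WT and 44.0, 26.5 and 44.2 CPM in KO at day 5. It fell in KO, with no called change in WT, and went from 3.35-fold higher in KO to overlapping groups (interaction -1.82 ± 0.28 SE, limma adjusted p = 0.000138). Maf, a factor of helper and effector cells, went from 39.2-fold to 14.6-fold higher (-1.23 ± 0.29 SE, limma adjusted p = 0.00648), and Il18r1, the IL-18 receptor, from 2.26-fold to 1.21-fold (-0.89 ± 0.13 SE, limma adjusted p = 6.32e-05). Without the trend in the prior Ccl5 and Maf were not called (limma adjusted p = 0.0587 and 0.0694).

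**Figure D5:**
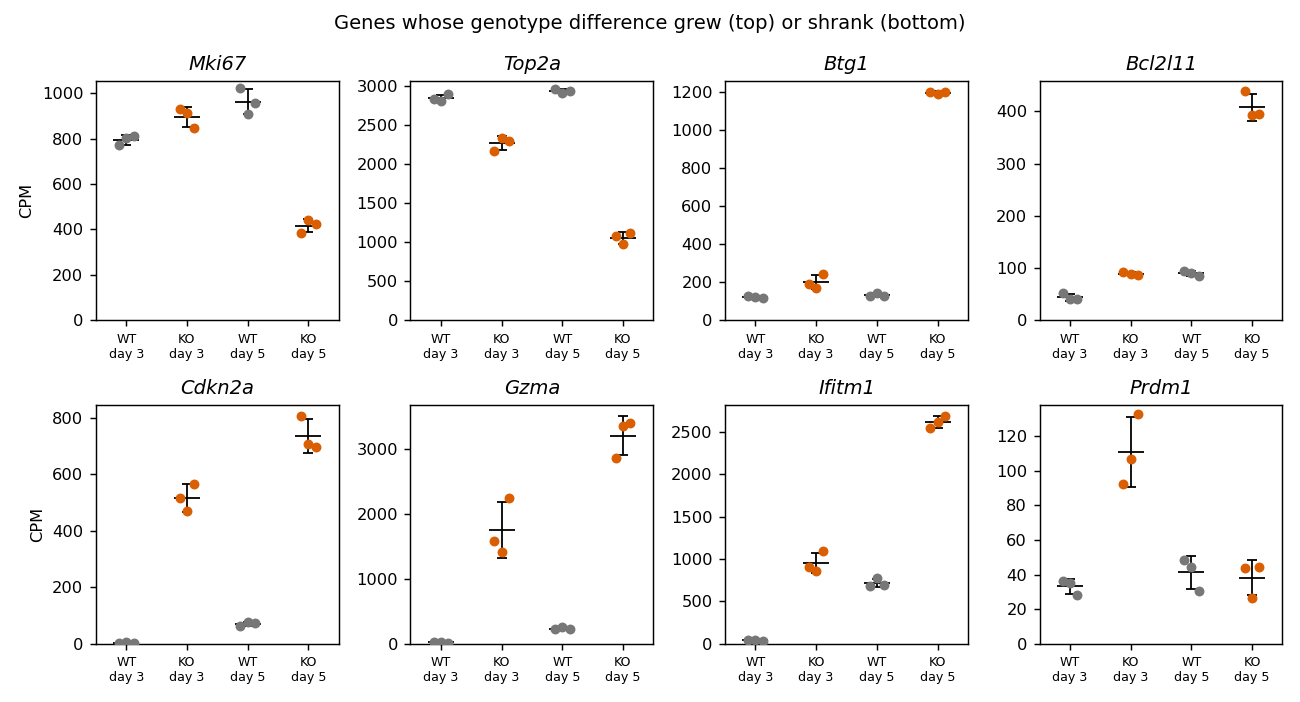
Each point is the CPM of a library for 4 genes whose genotype difference grew (top) and 4 whose difference shrank (bottom), with WT in grey and KO in orange at day 3 and day 5, the long bar the mean and the short bars the SD of 3 libraries. The KO day 5 libraries of Mki67 and Top2a are below and those of Btg1 and Bcl2l11 above all others; for Cdkn2a, Gzma and Ifitm1 WT is lowest at day 3 and higher at day 5, and Prdm1 is highest in KO at day 3.

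A lower KO level shrank at 51 genes, of which 6 are described. Cd6, a co-receptor of the T cell surface, stood at 29.6, 27.7 and 31.2 CPM in WT and 9.45, 8.65 and 5.47 CPM in KO at day 3, and at 22.2, 19.5 and 27.7 CPM in WT and 14.2, 15.4 and 15.8 CPM in KO at day 5. KO was lower at both days, 3.75-fold and then 1.53-fold (interaction 1.25 ± 0.32 SE, limma adjusted p = 0.0108). Cd2, an adhesion receptor, went from 1.93-fold lower to overlapping groups (0.70 ± 0.14 SE, limma adjusted p = 0.00181). Tnfrsf18, which encodes GITR, fell in WT with no call in KO and overlapped at day 5 (0.65 ± 0.13 SE, limma adjusted p = 0.00173). Tent5a, a poly(A) polymerase, was 1.96-fold lower in KO at day 3 and overlapped at day 5 (0.99 ± 0.22 SE, limma adjusted p = 0.00358), and Trib2, a pseudokinase, had the largest interaction of the class on 2.49, 8.11 and 8.75 CPM in KO at day 3 and 21.4, 12.9 and 15.8 CPM at day 5 (1.77 ± 0.47 SE, limma adjusted p = 0.0149). Ogt, the enzyme that attaches O-GlcNAc, had 0.97 ± 0.25 SE, limma adjusted p = 0.0119. Without the trend in the prior Cd2, Trib2 and Ogt were not called (limma adjusted p = 0.0502, 0.0591 and 0.0589).

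Receptors that restrain or assist T cells are given by their counts, beside 4.01% higher and 8.85% lower calls over all tested genes. Of 20 tested inhibitory receptors and ligands 1 moved higher and 0 lower, although 8 were higher in KO at day 3 and 11 at day 5. The 1 gene was Vsir, which encodes VISTA, at 82.3, 68.7 and 81.1 CPM in WT and 111, 96.3 and 119.8 CPM in KO at day 3, and at 58.4, 54.1 and 58.2 CPM in WT and 214, 227 and 208 CPM in KO at day 5. It fell in WT and rose in KO, from 1.41-fold to 3.81-fold higher (interaction 1.42 ± 0.15 SE, limma adjusted p = 2.34e-06). Ctla4 had an interaction of 0.87 ± 0.29 SE, limma adjusted p = 0.0557 and passed the threshold under 7 of 24 alternatives, among them edgeR (adjusted p = 0.0196), DESeq2 (adjusted p = 0.0165), the 3 other scalings and the fit without replicate 1 of KO day 5 (limma adjusted p = 0.00667). Of 17 co-stimulatory receptors 3 moved higher and 0 lower, of 29 cytokine receptor genes 3 and 1, of 29 chemokine receptors and integrins 0 and 3, and of 21 cytokines and chemokines 5 and 0. Without replicate 2 of the KO day 5 group the higher and lower counts were 2 and 0 for the inhibitory list, 4 and 0 for co-stimulation, 5 and 3 for cytokine receptors, 2 and 4 for chemokine receptors and 4 and 1 for cytokines. Il2rg, the common chain of the IL-2 and IL-7 receptors, moved higher (0.51 ± 0.14 SE, limma adjusted p = 0.0169), a call lost without replicate 1 or 2 of KO day 3 (limma adjusted p = 0.0531 and 0.0501) or the trend in the prior (0.124), and Tnfsf8, the ligand of CD30, moved higher too (1.13 ± 0.19 SE, limma adjusted p = 0.000278). Of 18 helper and regulatory lineage genes Rora, a nuclear receptor, moved higher (0.90 ± 0.21 SE, limma adjusted p = 0.0065) and Maf lower. Of 20 S100, annexin and galectin genes 5 moved higher and 4 lower, S100a13 among the former (0.85 ± 0.12 SE, limma adjusted p = 8.4e-05).

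A call that is not made does not show that a difference stayed the same, so steady genes were defined by their interval. They had at least a 2-fold genotype difference called in the same direction at both days, and a 95% interval of the interaction that lay within a 1.5-fold change either way. This held for 18 genes higher in KO (0.158% of tested genes) and for 4 lower in KO (0.035%). Id2, a regulator of effector cells, stood at 740.4, 739 and 687 CPM in WT and 2816, 2871 and 3563 CPM in KO at day 3. At day 5 it stood at 1125, 1252 and 1242 CPM in WT and 5016, 4099 and 5442 CPM in KO. Both genotypes rose, and KO was 4.27-fold and 4.02-fold above WT, with an interaction interval from -0.37 to 0.20. Sgk1, a kinase downstream of PI3K, was 4.72-fold and 4.42-fold higher (interval -0.46 to 0.34), and Ctsd, the lysosomal protease cathepsin D, 3.49-fold and 3.30-fold (interval -0.34 to 0.19). Gsn and Enah, which act on actin, and Glrx, a glutaredoxin, were the other 3 named by the same rule. The 4 steady genes lower in KO were Klrk1, Cd3eap, Zfp703 and Naf1. Klrk1, the activating receptor NKG2D, stood at 75.8, 84.2 and 78.3 CPM in WT and 24.9, 30.3 and 27.9 CPM in KO at day 3, and at 78.9, 84.7 and 87.6 CPM in WT and 25.2, 35.1 and 21.5 CPM in KO at day 5. KO was 2.87-fold lower and then 3.07-fold lower, with no overlap at either day (interval -0.58 to 0.34).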

How the data were processed

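QuantSeq 3′ mRNA libraries of 12 samples were deposited as 1 table per library. The values are reads per 1000000 assigned reads (CPM): the deposited columns sum to 1000000 and hold whole multiples of 1 step each, although the authors named them TPM. Tools for alignment and counting are not stated in the labels, and both GRCm39 and mm10 stand in the submitters' processing notes with no role. Of 25655 gene identifiers 25600 were found in GENCODE M21, from which the GRCm38 coordinates come.

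Groups were taken from the sample titles. Genes with at least 1 CPM in at least 3 libraries were fitted as log2(CPM + 1) with limma 3.58.1 (R 4.3.3), using a mean for each group over all 12 libraries and a trend in the prior; tests were two-sided and p-values were adjusted by Benjamini-Hochberg over all tested genes. Fold changes on the log2 scale understate the change of low genes; folds in words are ratios of mean CPM. Dividing by the step returned whole reads for 100% of values (tolerance 0.001), on which edgeR 4.0.16 called 1357 interaction genes and DESeq2 1.42.0 called 1019. Other alternatives were pseudocounts of 0.1 and 5, other filters, other scalings, the replicate number as a block, other priors and leaving out each library. The fitting steps were tested on simulated data.

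The members, gene lists and tests were chosen with earlier results of these data known, and some lists were compiled after those results. Values are given for genes named by rule: Ezh2, the 8 largest interactions of each class among genes reaching a mean of 5 CPM, up to 6 steady genes per direction and the 4 smallest adjusted p of each list, some of which are left out. Genes outside it, such as list members named in a count, were chosen after their values were seen. Promoters came from RefSeq. No batch or date is given in the labels. Some results are not reported here.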

Additional observations from a re-analysis of the deposited data

Results flagged for a closer look

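The interaction test compares the genotype difference at the 2 days directly. It called 458 genes as moving higher and 1010 as moving lower in KO, at a threshold under which a part of the calls may be false. The difference was called with opposite signs at the 2 days in 32 genes from higher to lower and 25 from lower to higher in KO. The log2 interaction is given for the ones described above, which are a part of each class.

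From higher to lower in KO, 11 of the 32 were Gpsm2 (-2.07), Nucb2 (-1.82), Reep1 (-1.79), E2f7 (-1.74), Utp14b (-1.59), Hsd17b7 (-1.56), Nsdhl (-1.30), Pdia6 (-1.24), Hsp90b1 (-1.07), Nars (-1.05) and Pdia4 (-0.84). From lower to higher, 9 of the 25 were Ifi27l2a (2.31), Zfp219 (1.80), Bach2 (1.62), Ipcef1 (1.62), Il7r (1.59), Ltb (1.57), Tcf7 (1.55), H1f2 (1.51) and Cd8a (0.83). Each of these genes kept its interaction call under all 24 alternatives, except that DESeq2 gave no adjusted p for Nucb2, which kept its call under the other 23. Groups of 3 libraries are too small for a check of single outlying values.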

How the results depend on the processing

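Of the 1468 interaction genes, 590 were called under all 24 alternatives, 170 higher and 420 lower, among them 51 of the 57 that turned sign. Without the trend in the prior 282 genes moved higher and 602 lower, 719 grew, 116 shrank, 37 turned and 773 changed with day in WT. DESeq2 gave 567 lower calls, 98 genes that shrank and 35 that turned. With 1 library left out at a time, 346 to 540 genes moved higher and 762 to 1223 lower, 901 to 1373 grew, 124 to 242 shrank and 38 to 107 turned. The same fits gave 1497 to 2697 genotype calls at day 3, 3877 to 4485 at day 5, 818 to 1760 day calls in WT, 3329 to 3949 in KO and 12 to 25 steady genes. The 107 came without replicate 2 of KO day 5. Day calls in WT were 824 without replicate 1 of WT day 3 and 818 without replicate 3 of WT day 5, and steady genes were 12 without replicate 2 of WT day 3 and 13 without replicate 3 of KO day 3. The cause was not tested. Csf1, a growth factor gene with few reads, had an interaction of 1.96 that became -0.11 with edgeR, which measures ratios of reads.

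With the replicate number as a block 459 genes moved higher and 1014 lower. Libraries of the same number did not deviate together: their correlations lay between -0.01 and 0.04, 0 of 18 pairs exceeded 0.1, and 7 of 12 libraries correlated best with their own number, so the numbers were not used to pair samples.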
